A study of Mus musculus with 9 samples.

Results

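Mouse embryonic stem cells kept in expanded potential stem cell medium (EPSCM) were compared with the same cells kept in serum medium, gene family by gene family. The comparison takes 6 of the 9 libraries of the study, the 3 labelled EPSCM and the 3 labelled ES, chosen by the culture condition in the labels. All libraries come from E14, a widely used male embryonic stem cell line, grown on gelatin without a feeder layer named in the labels. ES libraries were from cells in high glucose DMEM with fetal bovine serum and leukemia inhibitory factor (LIF), a cytokine that keeps stem cells undifferentiated. EPSCM libraries were from cells in the expanded potential medium, whose composition the labels do not give. The remaining 3 libraries, from N2B27 medium with 2iLIF, are given only as values beside those of the other media, since they share no role in the comparison. Poly(A) RNA was sequenced from stranded libraries, and a gene's level was deposited as FPKM, fragments per kilobase of transcript scaled to library size. Nothing in the labels ties the libraries to separate cultures; the p-values cover the variation among these libraries alone, and that variation may be technical.

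Serum is a mixture of lipids, proteins and growth factors. Cells take up fatty acids, store them in lipid droplets, break down membrane lipids in lysosomes and burn acyl chains in mitochondria. They also rebuild the matrix they sit on, and families of near-identical genes on the X chromosome are mostly active in testis, placenta and early embryo. Those are the families followed here.

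A gene was tested if it reached 1 FPKM in at least 3 of the 6 libraries, which held for 12062 of 24819 genes. Differences are EPSCM minus ES on the log2(FPKM + 1) scale with their standard error from limma, a linear model that shares the estimate of spread across genes; on this scale weakly expressed genes show less than their full fold. Calls of higher or lower required a Benjamini-Hochberg adjusted p under 0.05 together with a difference of 1 or more in either direction. Levels are listed library by library, in the order of replicates 1, 2 and 3. In every called gene named below, the 3 EPSCM libraries and the 3 ES libraries did not overlap, and its call held in each of the other settings that tested it unless another value is given. Lack of overlap adds little to a call, since it held in 2418 of all 2422 called genes.

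FPKM sums ranged from 554622 to 600728 over the 6 libraries, and 11312 to 11764 genes reached 1 FPKM in a library. The first principal component held 88.4% of the variance and separated the media. The second held 8.47% and set ES replicate 1 and EPSCM replicate 2 apart from the other 4 libraries, so each medium has 1 library that stands apart. Within a medium, correlations across genes, which are not independent replicates, were 0.9847 to 0.9969. The median difference was -0.29 on chromosome 1 and -0.06 on chromosome 14, against 0.10 over all tested genes, and the 4 tested genes of the Y chromosome were all called higher. Chromosome 8 had a median of 0.22, with 113 of 670 genes higher and 41 lower. Genes described below that lie there include Lpl, Mcoln1, Ppp1r3b, Col4a1, Col4a2, Rab3a and Irx3, all higher, and Aprt and Cdh3, both lower. The part of the chromosome in their values was not tested. Called genes named below that lie on chromosomes 1 and 14 are marked as such.

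Of the tested genes, 1440 were called higher in EPSCM, 11.9%, and 982 lower, 8.14%, so 20.1% were called in either direction. Among the 11088 genes that reached 1 FPKM in at least 1 library of each medium, 9.97% were called higher and 7.45% lower. A further 649 tested genes reached 1 FPKM in EPSCM only and 325 in ES only, and so passed the filter through 1 medium. The balance of directions depended on the scaling of the libraries: 59.5% of calls were higher with the deposited values, 48.9% after quantile normalization (1100 higher, 1149 lower), and the directions were even with the libraries set to the same median ratio (1199 higher, 1200 lower). That last scaling moved the median of all genes from 0.10 to -0.01. Shares of a gene list are therefore read against 11.9% and 8.14%, and its median against 0.10. The 71 lists of gene families and functions held 4201 tested genes, of which 931 were called.

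**Figure D1:**
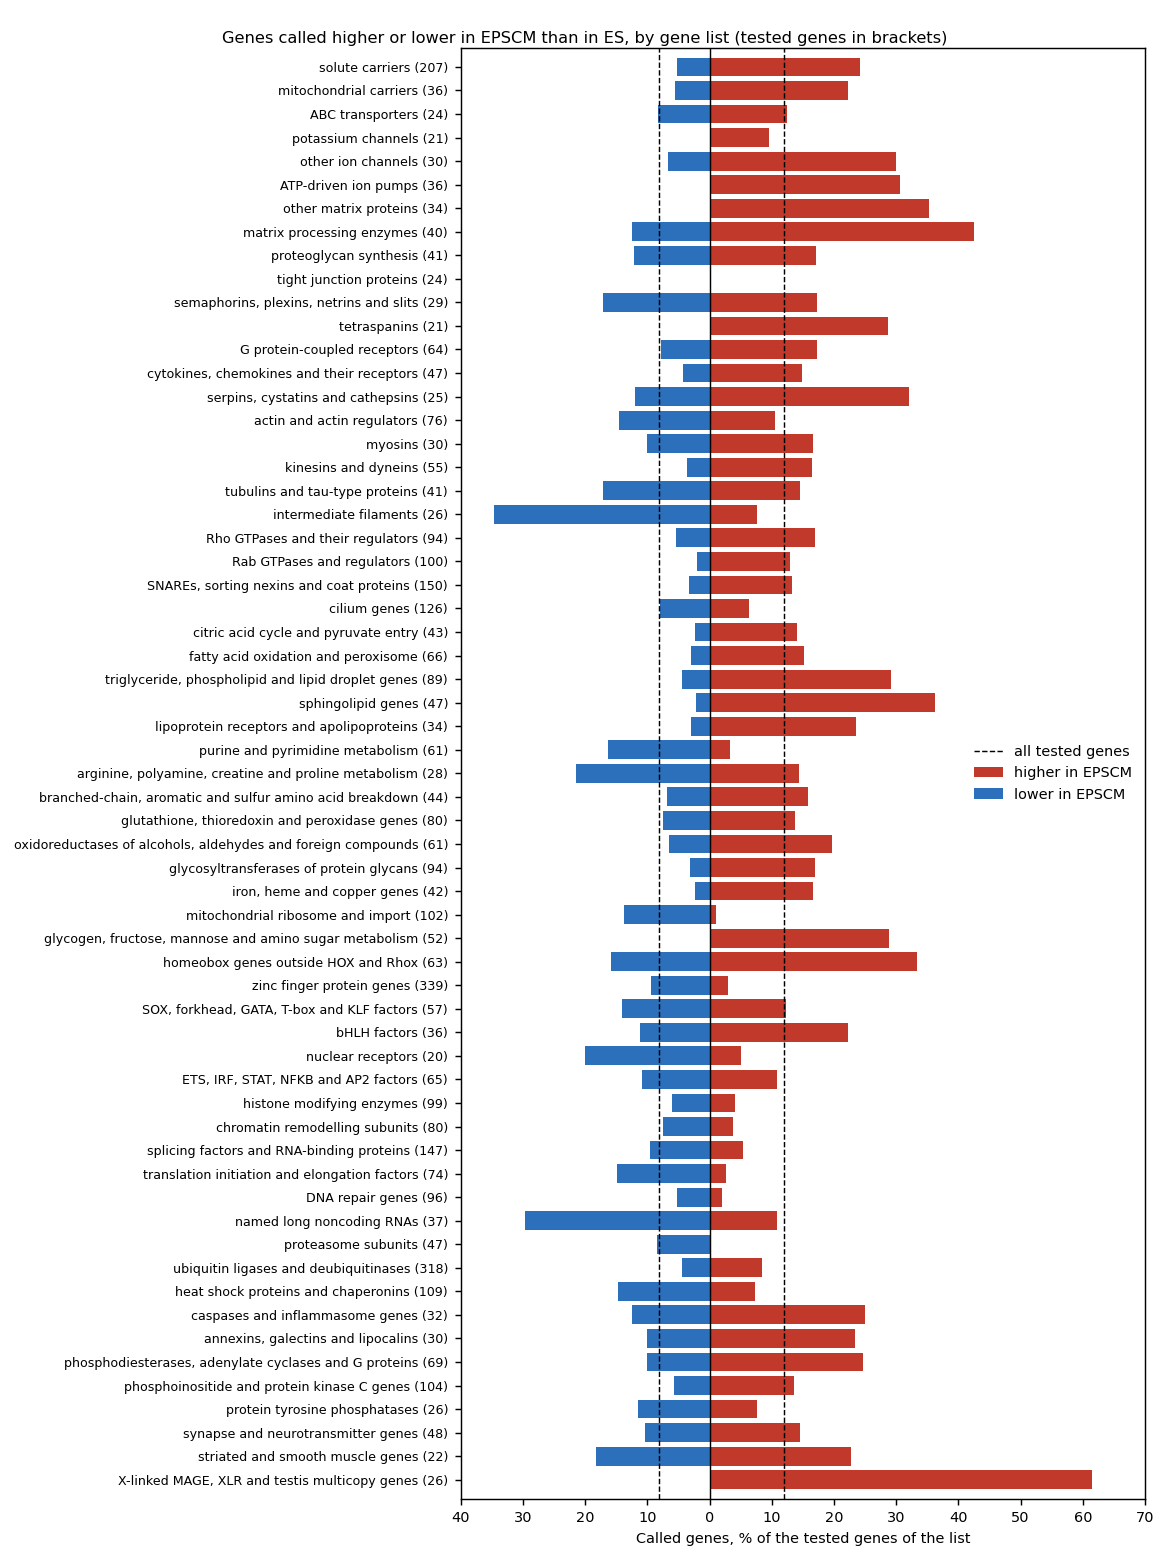
Percentage of tested genes called higher (red, to the right) or lower (blue, to the left) in EPSCM than in ES for the 61 lists with at least 20 tested genes, whose number stands in brackets; dashed lines mark the shares over all tested genes, 11.9% and 8.14%. Sphingolipid, matrix and ion pump lists reach far past the right line, and intermediate filaments and long noncoding RNAs past the left one.

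A minority of the genes that carry and store fatty acids was called, and most of those calls were higher in EPSCM. Of 89 tested genes for triglycerides, phospholipids and lipid droplets, 26 were higher and 4 lower, with a median difference of 0.63. Fabp3, which carries fatty acids through the cytoplasm, stood at 973, 1121 and 966 FPKM in EPSCM and 61.6, 51.4 and 53.3 in ES, a log2 difference of 4.18 ± 0.10. Cidea, a lipid droplet protein that helps droplets fuse, was at 14.6, 16.2 and 16.5 FPKM in EPSCM and 0.623, 0.476 and 0.340 in ES, a log2 difference of 3.51 ± 0.09. Lpl, the enzyme that frees fatty acids from the triglycerides of lipoproteins, was at 23.3, 26.3 and 22.6 FPKM in EPSCM and 1.88, 2.04 and 2.03 in ES, a log2 difference of 3.07 ± 0.08. In all 3 genes each EPSCM library lay several times above each ES library, and the libraries of a medium were close together. The adjusted p-values of limma were 4.61e-07, 8.11e-07 and 8.02e-07. In bulk RNA, fewer cells of a kind and less RNA per cell cannot be told apart, here and in all comparisons that follow.

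Plin2, which coats lipid droplets, had 44.6, 54.3 and 45.9 FPKM in EPSCM and 11.6, 10.4 and 10.5 in ES, a log2 difference of 2.05 ± 0.09. Acss1 and Acss2 turn acetate into acetyl-CoA, in mitochondria and in cytosol and nucleus. Acss1 was at 27.7, 29.5 and 27.9 FPKM in EPSCM and 3.17, 3.26 and 3.08 in ES, a log2 difference of 2.82 ± 0.06, and Acss2 at 25.2, 28.6 and 25.2 FPKM in EPSCM and 4.46, 4.904 and 3.86 in ES, a log2 difference of 2.34 ± 0.10. The 2iLIF libraries were near EPSCM for Plin2, at 52.1, 44.9 and 43.6, and between the other media for Fabp3, at 288, 248 and 239. Against the direction of the list, Pcyt1b, an enzyme of phosphatidylcholine synthesis, fell from 22.3, 27.4 and 26.3 FPKM in ES to 6.45, 5.83 and 6.64 in EPSCM (-1.85 ± 0.09).

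Genes for the entry of acyl chains into mitochondria had calls in 1 direction. Among 20 genes of the carnitine shuttle and mitochondrial fatty acid oxidation, a subgroup formed after the values were seen, 6 were higher and none lower, and 17 of 20 differences were above 0. Cpt1a, which loads fatty acids onto carnitine, was at 93.9, 96.2 and 96.3 FPKM in EPSCM and 21.6, 20.9 and 21.2 in ES, a log2 difference of 2.12 ± 0.05. Slc25a20 carries acylcarnitines across the inner membrane and was at 61.8, 62.7 and 60.4 FPKM in EPSCM and 10.6, 9.17 and 9.63 in ES, a log2 difference of 2.54 ± 0.07. Hadh catalyses a step of beta-oxidation, and its libraries had 217, 227 and 213 FPKM in EPSCM and 55.2, 49.9 and 52.03 in ES, a log2 difference of 2.05 ± 0.06. The EPSCM libraries of these genes spanned narrow ranges, all above the ES libraries. Oxct1, which activates ketone bodies for use as fuel, was higher as well (1.56 ± 0.11), while Bdh2, a dehydrogenase of hydroxybutyrate, fell from 16.3, 14.2 and 14.1 to 1.51, 1.56 and 1.26 FPKM. The wider list of fatty acid oxidation and peroxisome genes had 10 higher and 2 lower of 66, with a median of 0.26, and 7 higher after quantile normalization, so its share was near that of all genes. Of 34 lipoprotein receptor and apolipoprotein genes, 8 were higher and 1 lower; Scarb1, the receptor that takes cholesterol esters from high density lipoprotein, was at 71.2, 83.4 and 73.2 FPKM in EPSCM and 22.9, 19.8 and 20.2 in ES, a log2 difference of 1.81 ± 0.09.

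**Figure D2:**
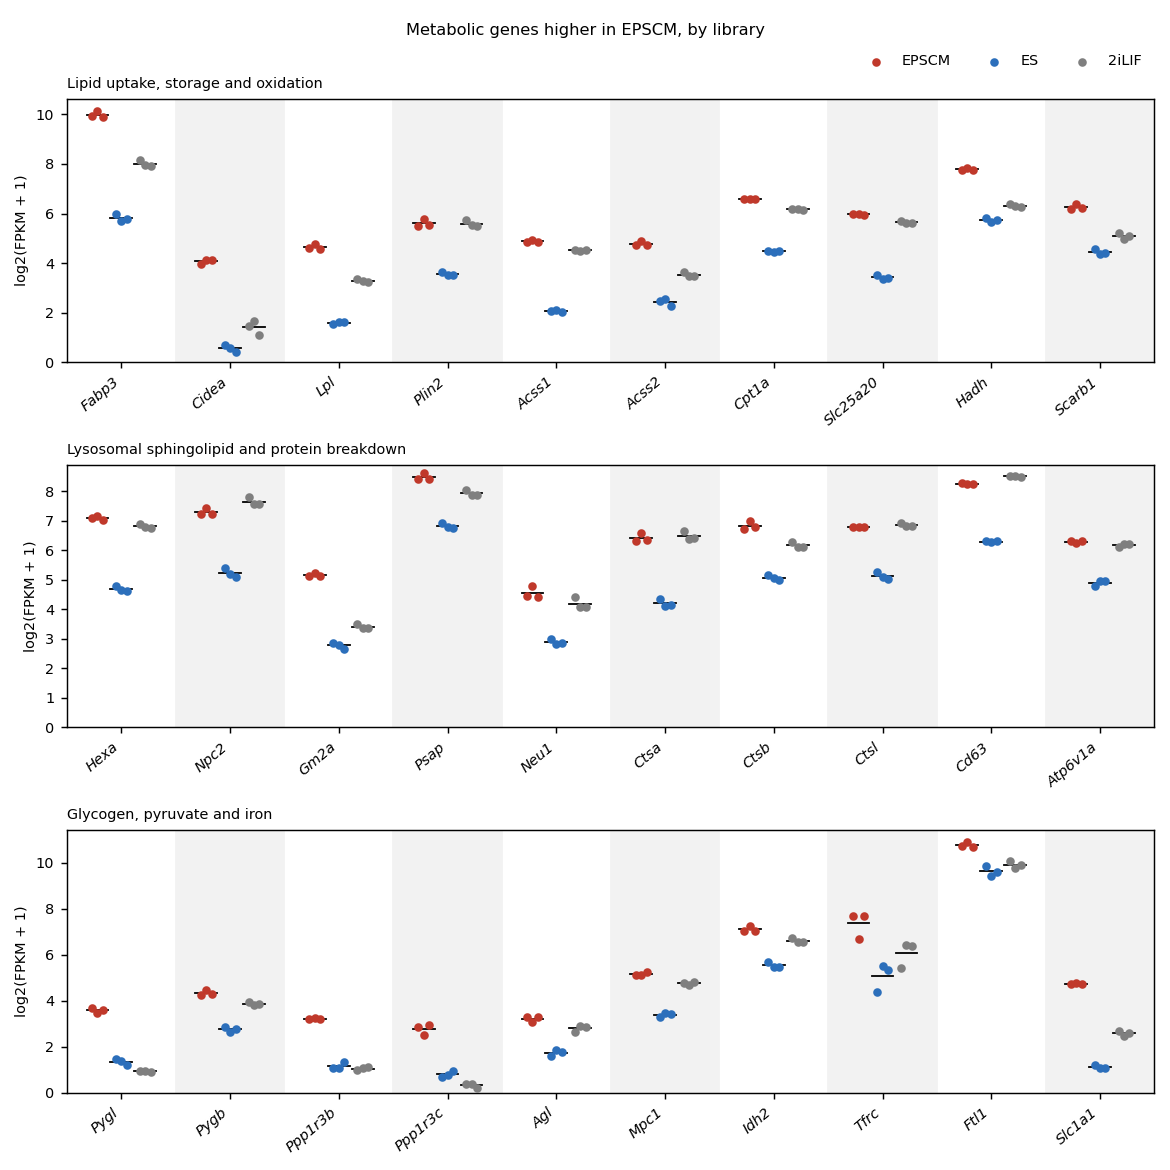
Level of 30 metabolic genes on the log2(FPKM + 1) scale in each library of EPSCM (red), ES (blue) and 2iLIF (grey), with the mean as a black line; genes were picked for display after their values were seen. For each gene the 3 EPSCM points lie above the 3 ES points, and for Tfrc the library of each medium that stands apart lies lowest.

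Lysosomes break down the lipids and proteins that reach them, and many genes for their enzymes were higher in EPSCM. Sphingolipid genes had 17 higher and 1 lower of 47, with a median of 0.47, and 12 higher and 3 lower after quantile normalization. Hexa, a subunit of beta-hexosaminidase, which trims gangliosides, stood at 137, 142 and 129.6 FPKM in EPSCM and 26.98, 24.4 and 23.5 in ES, a log2 difference of 2.40 ± 0.07. Gm2a, the activator that lifts its ganglioside substrate out of the membrane, was at 33.9, 36.996 and 34.1 FPKM in EPSCM and 6.29, 5.98 and 5.32 in ES, a log2 difference of 2.39 ± 0.08. Psap, the precursor of the saposins that assist several of these enzymes, was at 337, 389 and 338 FPKM in EPSCM and 120.1, 109 and 106 in ES, a log2 difference of 1.66 ± 0.08. Every EPSCM library was above every ES library in each of the 3 genes. The gene lower in EPSCM was Acer2, a ceramidase of the Golgi, at -1.33 ± 0.08. Gla, which removes galactose from globosides, was not called, at 0.28 ± 0.08.

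Of 47 tested genes for lysosomal enzymes and membrane proteins, a subgroup formed after the values were seen that shares members with the sphingolipid and cathepsin lists, 25 were higher and 1 lower, with a median of 1.01. All but 2 of them reached 1 FPKM in both media, and of those 45 genes 53.3% were higher, against 9.97% of all such genes. Their FPKM summed to 2742 to 2932 in the EPSCM libraries and 1117 to 1195 in the ES libraries. Acp5, tartrate-resistant acid phosphatase, differed most, at 52.3, 59.5 and 47.96 FPKM in EPSCM and 3.98, 3.29 and 2.61 in ES, a log2 difference of 3.67 ± 0.14. Npc2, which hands cholesterol out of the lysosome, was at 149, 174 and 148 FPKM in EPSCM and 41.1, 35.8 and 33.03 in ES, a log2 difference of 2.07 ± 0.10. The cathepsins Ctsa, Ctsb and Ctsl differed by 2.20 ± 0.10, 1.76 ± 0.09 and 1.66 ± 0.08; Ctsb lies on chromosome 14. Ctsa also shields the sialidase Neu1, which was at 20.7, 26.6 and 20.4 FPKM in EPSCM and 7.04, 6.02 and 6.25 in ES, a log2 difference of 1.66 ± 0.12. Lamp1, an abundant protein of the lysosomal membrane, stayed short of the fold limit at 0.60 ± 0.05 (limma adjusted p = 6.54e-05). In 2iLIF the levels were near those of EPSCM for Hexa (118, 109 and 107 FPKM) and Ctsa (98.7, 83.2 and 85.3 FPKM), and near ES for Acp5 (6.08, 4.72 and 6.17 FPKM).

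Genes of lysosome formation are known to carry an E-box in their promoters that the factors TFEB, TFE3 and MITF bind, with the palindromic core TCACGTGA, which reads the same on both strands. Of the genes called higher in the lysosome, ion pump and ion channel lists, 5 hold this core in the 250 bases before a RefSeq start site, and these stretches are printed to show the element; genes with the core that were not called are not printed. The sequences are from RefSeq on GRCm38.p6, written 5′ to 3′ in the direction of the gene, with the core in capitals: Atp6v1a at chr16:44139344-44139431 (minus strand), Atp7a at chrX:106027096-106027183 (plus), Clcn6 at chr4:148038814-148038879 (minus), Ctsa at chr2:164833720-164833772 (plus) and Mcoln1 at chr8:3500433-3500518 (plus).
Atp6v1a: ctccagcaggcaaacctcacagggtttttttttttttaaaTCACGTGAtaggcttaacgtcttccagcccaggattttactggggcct
Atp7a: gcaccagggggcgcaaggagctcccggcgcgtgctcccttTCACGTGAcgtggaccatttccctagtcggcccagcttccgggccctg
Clcn6: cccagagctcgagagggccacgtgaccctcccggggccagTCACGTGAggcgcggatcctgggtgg
Ctsa: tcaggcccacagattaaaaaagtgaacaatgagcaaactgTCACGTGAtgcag
Mcoln1: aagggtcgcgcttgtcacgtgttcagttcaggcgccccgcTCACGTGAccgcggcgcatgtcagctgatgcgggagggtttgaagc
The core starts 132, 88, 26, 13 and 46 bases before the start site in these 5 genes.

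Of the 5 genes with the core, Atp6v1a, the catalytic subunit of the proton pump that acidifies lysosomes, was at 78.04, 75.4 and 78.5 FPKM in EPSCM and 26.8, 30.2 and 29.9 in ES, a log2 difference of 1.39 ± 0.07. Clcn6, a chloride and proton exchanger of late endosomes, was at 40.6, 43.2 and 41.2 FPKM in EPSCM and 14.9, 13.7 and 13.9 in ES, a log2 difference of 1.49 ± 0.06. Mcoln1, the lysosomal calcium channel mucolipin, was at 36.1, 40.3 and 36.8 FPKM in EPSCM and 12.3, 11.7 and 11.5 in ES, a log2 difference of 1.59 ± 0.07. Ctsa was at 78.2, 94.6 and 79.96 FPKM in EPSCM and 19.6, 16.2 and 16.8 in ES, a log2 difference of 2.20 ± 0.10. Atp7a, a copper pump of the secretory pathway, was at 6.72, 3.68 and 6.41 FPKM in EPSCM and 1.27, 1.92 and 2.01 in ES, a log2 difference of 1.25 ± 0.21, with EPSCM replicate 2 the lowest of its medium; without the libraries that stand apart the difference was 1.35. Across all promoter entries 0.785% of 32851 hold the core in this window. Among tested genes with a promoter sequence the core was in 1.79% of 9669, in 1.65% of the 1152 higher genes and in 1.20% of the 752 lower genes. Among the 38 lysosomal genes with a sequence it was in 13.2%, and among the 19 of those that were higher in 10.5%, that is in 2 of the 5 lysosomal genes with the core. None of the 13 higher sphingolipid genes with a sequence held it. These are matches of letters in 1 window per entry, not binding sites.

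Of 52 genes of glycogen, fructose, mannose and amino sugar metabolism, 15 were higher and none lower, with a median of 0.54, while 18 of the 52 differences were below 0. After quantile normalization 10 were higher and 1 lower. Glycogen is the branched glucose store, and Pygl and Pygb encode phosphorylases that release glucose from it. Pygl was at 11.7, 10.2 and 11.2 FPKM in EPSCM and 1.801, 1.59 and 1.33 in ES, a log2 difference of 2.23 ± 0.09, and Pygb at 17.9, 21.4 and 18.6 FPKM in EPSCM and 6.28, 5.26 and 5.87 in ES, a log2 difference of 1.57 ± 0.09. Ppp1r3b and Ppp1r3c bring a phosphatase to glycogen and favour its synthesis. Ppp1r3b was at 8.14, 8.67 and 8.21 FPKM in EPSCM and 1.08, 1.11 and 1.51 in ES, a log2 difference of 2.07 ± 0.09, and Ppp1r3c at 6.32, 4.67 and 6.698 FPKM in EPSCM and 0.623, 0.723 and 0.910 in ES, a log2 difference of 1.97 ± 0.13. All 4 genes were higher in every EPSCM library than in any ES library. In 2iLIF, Pygl, Ppp1r3b and Ppp1r3c lay among or below the ES levels: Pygl was at 0.945, 0.953 and 0.870 FPKM, Ppp1r3b at 0.966, 1.09 and 1.16, and Ppp1r3c at 0.296, 0.304 and 0.156. Among 11 tested proteins that bind or split glycogen, a subgroup formed after the values were seen, 7 were higher and all 11 differences were above 0. Of the 11, 2 reached 1 FPKM in EPSCM only and so passed the filter through that medium. Ppp1r3c is 1 of these 2. Of the 9 that reached 1 FPKM in both media, 6 were higher. Gys1, glycogen synthase itself, was among those not called (0.55 ± 0.08). Sord, which makes fructose from sorbitol, was at 37.000, 38.4 and 36.7 FPKM in EPSCM and 10.05, 9.06 and 8.48 in ES, a log2 difference of 1.91 ± 0.07.

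In the list for the citric acid cycle and pyruvate entry, 6 of 43 were higher and 1 lower, and the median of 0.13 was near that of all genes. Mpc1, a subunit of the mitochondrial pyruvate carrier, stood at 34.3, 33.6 and 37.2 FPKM in EPSCM and 8.702, 10.3 and 9.68 in ES, a log2 difference of 1.77 ± 0.08. Idh2, the mitochondrial NADP-dependent isocitrate dehydrogenase, was at 131, 152 and 131 FPKM in EPSCM and 51.1, 43.3 and 43.1 in ES, a log2 difference of 1.57 ± 0.10. Pdk4, a kinase that shuts off pyruvate dehydrogenase, was higher as well, by 1.33 ± 0.07. Txnip, which binds thioredoxin and limits glucose uptake, was at 541, 551 and 528 FPKM in EPSCM, 130.1, 123.01 and 122 in ES and 32.5, 32.3 and 30.96 in 2iLIF, a log2 difference of 2.10 ± 0.06 between EPSCM and ES, so the media ordered differently there: 2iLIF was lowest. Selenbp1, a selenium-binding oxidase, was higher (2.32 ± 0.12), while Gpx2, a glutathione peroxidase, and Gsto1, a glutathione transferase, were lower (-1.79 ± 0.11 and -1.91 ± 0.08). The list of glutathione, thioredoxin and peroxidase genes was close to the background, with 11 higher and 6 lower of 80 and a median of 0.04.

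Membrane transporters were higher more often than lower. Of 207 solute carriers, the family that moves sugars, amino acids, ions and metals across membranes, 50 were higher and 11 lower, with a median of 0.35. After quantile normalization 35 were higher and 20 lower. Of the 207, 20 reached 1 FPKM in EPSCM only and 6 in ES only. Among the 181 that reached it in both media, 38 were higher and 8 lower. Slc1a1 imports glutamate and aspartate and was at 25.4, 26.9 and 25.6 FPKM in EPSCM and 1.31, 1.099 and 1.14 in ES, a log2 difference of 3.63 ± 0.07. Slc12a7 moves potassium with chloride and was at 113, 129 and 113 FPKM in EPSCM and 22.01, 19.4 and 20.03 in ES, a log2 difference of 2.47 ± 0.08. Among those that fell were Slc7a3, an importer of arginine and lysine, at 7.87, 7.502 and 7.67 FPKM in EPSCM and 89.6, 100.4 and 95.6 in ES, a log2 difference of -3.47 ± 0.07, and Slc7a7, which exchanges cationic for neutral amino acids and lies on chromosome 14, at 5.32, 5.55 and 5.68 FPKM in EPSCM and 70.7, 65.6 and 65.98 in ES, a log2 difference of -3.39 ± 0.06. The ES libraries were the high ones for these 2 amino acid carriers, and no EPSCM library exceeded 8 FPKM. In 2iLIF Slc7a3 was near ES, at 68.9, 73.8 and 71.8 FPKM, and Slc7a7 below both, at 2.805, 2.67 and 2.91. Amino acid carriers as a subgroup had 8 higher and 4 lower of 37 tested.

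ATP-driven ion pumps had 11 higher and none lower of 36, with a median of 0.71, and 12 higher after quantile normalization. The sodium-potassium pump keeps the gradients that many carriers use, and all 9 of its tested subunits had differences above 0, 3 of them called; 2 of the 9 reached 1 FPKM in EPSCM only, and of the other 7 there were 2 higher. Atp1b2, a beta subunit best known from glia, stood at 48.99, 41.2 and 49.2 FPKM in EPSCM, 10.5, 11.2 and 10.7 in ES and 4.54, 5.24 and 4.99 in 2iLIF, a log2 difference of 2.00 ± 0.08 between EPSCM and ES. Its libraries ordered the media as EPSCM over ES over 2iLIF, with no overlap. Of the 16 tested subunits of the vacuolar proton pump, 5 were higher and none lower, and their FPKM summed to 1291 to 1299 in EPSCM and 782 to 815 in ES. Other ion channels had 9 higher and 2 lower of 30, but 4 higher after quantile normalization.

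Iron and copper genes had 7 higher and 1 lower of 42, with a median of 0.13. Tfrc, the transferrin receptor that brings iron into the cell, was at 208, 103 and 207 FPKM in EPSCM and 20.1, 44.6 and 39.2 in ES, a log2 difference of 2.29 ± 0.37 (limma adjusted p = 0.00115). EPSCM replicate 2 and ES replicate 1, the libraries that stand apart, were each the lowest of their medium; without them the difference was 2.28, and their part in the spread was not tested. Ftl1, the ferritin light chain that stores iron, was at 1730.5, 1915 and 1671 FPKM in EPSCM and 927, 700.3 and 771 in ES, a log2 difference of 1.15 ± 0.12, whereas Fth1, the heavy chain, was not called (-0.38 ± 0.06). Slc31a1, the copper importer, differed by 1.44 ± 0.16, and Steap3, a reductase of endosomal iron on chromosome 1, by 1.40 ± 0.10. Slc39a14, an importer of zinc, manganese and iron on chromosome 14, fell from 30.4, 32.8 and 32.6 FPKM in ES to 4.58, 4.58 and 4.78 in EPSCM.

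By their medians, gene groups for making nucleotides and proteins lay on the low side. Because short transcripts had lower differences than long ones, the length of transcripts is given first: over 5 classes of equal size, from the shortest to the longest of 12008 genes with a known length, the median difference was 0.01, 0.02, 0.07, 0.14 and 0.25. The part of transcript length in the results below was not tested beyond the medians set against these classes. Of 102 tested genes of the mitochondrial ribosome and mitochondrial import, 1 was higher and 14 lower, with a median of -0.49; after subtracting the median of each gene's length class it was -0.57. The mitochondrial ribosomal proteins alone had none higher and 11 lower of 78, and 71 of 78 differences were below 0. Their FPKM summed to 3420 to 3589 in EPSCM and 4863 to 5290 in ES. With the libraries set to the same median ratio 22 genes of the list were lower.

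Mrpl12, a protein of the large mitochondrial subunit, was at 71.4, 88.1 and 73.7 FPKM in EPSCM and 206, 162 and 168 in ES, a log2 difference of -1.19 ± 0.12; after quantile normalization it was at -0.998, just short of the fold limit. Timm10, a chaperone of the space between the mitochondrial membranes, was at 17.2, 18.99 and 16.2 FPKM in EPSCM and 74.03, 62.2 and 55.6 in ES, a log2 difference of -1.81 ± 0.12. Timm21, which links the import complexes of both membranes, was at 1.96, 1.91 and 2.15 FPKM in EPSCM and 11.1, 17.4 and 16.5 in ES, a log2 difference of -2.39 ± 0.16, with ES replicate 1 the lowest of its medium. The ES libraries were the high ones in all 3 genes. The gene of this list that was higher, Timm8a2, a paralog of an import chaperone on chromosome 14, was at 3.83, 4.58 and 3.96 FPKM in EPSCM and 0.456, 0.779 and 0.635 in ES, a log2 difference of 1.66 ± 0.10.

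Proteasome subunits had none higher and 4 lower of 47 tested, with a median of -0.55, and 44 of 47 differences were below 0. The count moved with the setting: 1 was lower after quantile normalization, 2 without the libraries that stand apart, and 7 with the same median ratio. Psmb10, a catalytic subunit of the immunoproteasome, was at 4.79, 6.43 and 5.46 FPKM in EPSCM and 27.1, 21.8 and 22.3 in ES, a log2 difference of -1.92 ± 0.12. Splicing factors and RNA-binding proteins had 8 higher and 14 lower of 147, with a median of -0.38, and translation factors 2 higher and 11 lower of 74, with a median of -0.29. The FPKM sum over the translation factors went the other way, at 22486.7 to 22928.0 in EPSCM and 20994.5 to 22256.6 in ES. Eif5a, the factor that carries hypusine and helps ribosomes past stretches of proline, fell from 1710.5, 1506 and 1529 FPKM in ES to 637, 698 and 636 in EPSCM (-1.27 ± 0.08). Hnrnpu, an RNA-binding protein of the nuclear scaffold on chromosome 1, fell from 267, 324 and 303 to 114, 101 and 116. Lin28a, which blocks let-7 microRNA maturation, fell from 82.6, 102 and 102 to 38.6, 32.5 and 38.5. Eif4a2, a helicase paralog of the initiation complex, went the other way, at 455, 245 and 458 FPKM in EPSCM and 81.2, 154 and 136 in ES, a log2 difference of 1.63 ± 0.32; its EPSCM replicate 2 and ES replicate 1 were the low ones, and without them the difference was 1.65.

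Purine and pyrimidine metabolism had 2 higher and 10 lower of 61, with a median of -0.34, and 5 lower without the genes of chromosomes 1, 14 and Y. Pnp, which splits purine nucleosides and lies on chromosome 14, was at 10.2, 11.4 and 10.2 FPKM in EPSCM and 77.7, 76.4 and 70.6 in ES, a log2 difference of -2.72 ± 0.07. Aprt, which salvages adenine, was at 102, 133 and 102 FPKM in EPSCM and 404, 320.5 and 323 in ES, a log2 difference of -1.63 ± 0.14. Dtymk, the thymidylate kinase on chromosome 1, was at 154, 151 and 143 FPKM in EPSCM and 454, 405 and 403 in ES, a log2 difference of -1.49 ± 0.07. Each ES library exceeded each EPSCM library by more than 2-fold in these 3 genes. Outside this list, Glul, glutamine synthetase on chromosome 1, fell from 287, 262 and 254 FPKM to 30.2, 36.6 and 32.5, a difference of -2.98 ± 0.09. Adssl1, a muscle form of adenylosuccinate synthase, and Ak4, a mitochondrial adenylate kinase, were the 2 genes of the list that were higher, by 2.48 ± 0.08 and 1.80 ± 0.08.

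Chaperones were divided. Of 109 heat shock proteins and chaperonins, 8 were higher and 16 lower, with a median of -0.08. Hspa8, the main constitutive HSP70, was at 798, 724 and 793 FPKM in EPSCM and 1584, 1725 and 1686 in ES, a log2 difference of -1.11 ± 0.07. Hspd1 and Hspe1, the mitochondrial chaperonin and its lid, are neighbours on chromosome 1, and differed by -1.46 ± 0.24 and -1.12 ± 0.06 (-1.44 for Hspd1 without the libraries that stand apart). All 8 tested subunits of the CCT chaperonin, which folds actin and tubulin, had differences below 0, down to -0.91, with none called. Small heat shock proteins went in opposite directions: Hspb8 was at 74.4, 80.6 and 73.9 FPKM in EPSCM and 6.47, 6.305 and 7.03 in ES, a log2 difference of 3.35 ± 0.07, while Cryab was at 1.74, 1.504 and 1.18 FPKM in EPSCM and 16.5, 13.9 and 14.4 in ES, a log2 difference of -2.69 ± 0.11. For Hspb8 the 2iLIF libraries were near EPSCM, at 65.8, 61.2 and 62.8 FPKM.

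**Figure D3:**
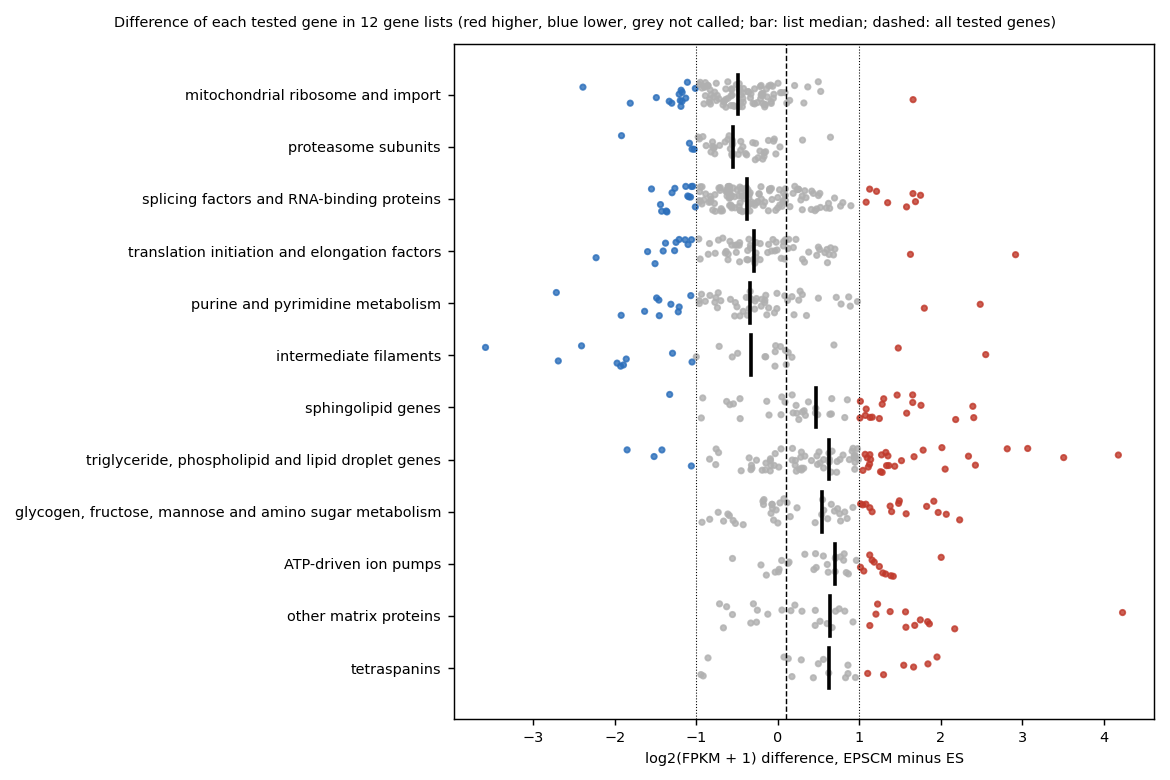
Log2(FPKM + 1) difference, EPSCM minus ES, of every tested gene in 12 lists, with red for genes called higher, blue for genes called lower and grey for genes not called; black bars are list medians, the dashed line the median of all tested genes (0.10) and dotted lines the fold limit. The upper lists lie to the left of the dashed line, from -0.29 for translation factors to -0.55 for proteasome subunits, and the lower lists to the right, from 0.47 to 0.71.

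Among matrix genes more calls were higher than lower, although most members were not called. Of 9 tested collagens 4 were higher and 1 lower; of 34 other matrix proteins 12 were higher and none lower, with a median of 0.64. Tinagl1, a secreted matrix glycoprotein that binds integrins, was at 38.5, 43.9 and 38.5 FPKM in EPSCM and 1.19, 1.05 and 1.36 in ES, a log2 difference of 4.23 ± 0.09. Fn1, fibronectin, which lies on chromosome 1, was at 421, 459 and 426 FPKM in EPSCM and 124, 118 and 116 in ES, a log2 difference of 1.86 ± 0.06. Col4a1 and Col4a2 encode the chains of the basement membrane collagen and share a promoter region; Col4a1 was at 26.2, 28.3 and 26.8 FPKM in EPSCM and 6.05, 5.62 and 5.71 in ES, a log2 difference of 2.05 ± 0.06, and Col4a2 at 14.8, 17.1 and 15.1 FPKM in EPSCM and 3.32, 2.89 and 3.18 in ES, a log2 difference of 2.01 ± 0.08. Each of these genes was several times higher in every EPSCM library. Col9a2, a cartilage collagen, differed by 3.18 ± 0.11, Ltbp3, which holds latent TGF-beta, by 2.17 ± 0.07, and Fbln1, fibulin, by 1.75 ± 0.10. The collagen that fell was Col18a1, the source of endostatin (-1.26 ± 0.09).

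Enzymes that act on matrix had 17 higher and 5 lower of 40, with a median of 0.51, and 2 lower without the genes of chromosomes 1, 14 and Y. Collagen chains need hydroxylated prolines and lysines to fold and to be crosslinked, and of 10 tested hydroxylases and lysyl oxidases, a subgroup formed after the values were seen, 6 were higher and none lower. P4ha1, a catalytic subunit of prolyl hydroxylase, was at 83.8, 84.2 and 86.6 FPKM in EPSCM, 14.7, 14.995 and 13.3 in ES and 10.3, 9.69 and 9.96 in 2iLIF, a log2 difference of 2.49 ± 0.07 between EPSCM and ES. P4ha2, its paralog, was at 35.3, 40.5 and 35.9 FPKM in EPSCM, 10.4, 8.85 and 8.61 in ES and 2.56, 2.66 and 2.85 in 2iLIF, a log2 difference of 1.90 ± 0.09 between EPSCM and ES. Plod2, a lysyl hydroxylase, was at 40.7, 30.7 and 42.7 FPKM in EPSCM and 9.14, 13.8 and 12.2 in ES, a log2 difference of 1.62 ± 0.17, and at 1.61 without the libraries that stand apart. Both prolyl hydroxylase genes were lower in 2iLIF than in either other medium. Tgm1, a transglutaminase of epithelia, and Mmp14, a protease anchored in the membrane, both on chromosome 14, were lower, with differences of -3.17 ± 0.07 and -1.69 ± 0.10. Timp3, an inhibitor of metalloproteases, was higher, at 3.65, 2.83 and 3.48 FPKM in EPSCM and 0.521, 0.689 and 0.472 in ES, a log2 difference of 1.47 ± 0.10. Sulf1, which trims sulfate from heparan chains and lies on chromosome 1, fell from 11.7, 12.6 and 12.2 to 1.03, 1.06 and 0.899 FPKM.

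Adhesion and junction genes showed no common direction. None of 24 tight junction genes was called, with a median of 0.28. Their differences ran from -0.99 to 0.95, so all stayed short of the fold limit. At a pseudocount of 0.1 FPKM 3 were higher and 1 lower. Itgav, an integrin alpha subunit that binds fibronectin and vitronectin, was at 9.79, 9.17 and 9.51 FPKM in EPSCM and 2.09, 2.39 and 2.17 in ES, a log2 difference of 1.71 ± 0.07. Itgb7, an integrin best known from lymphocytes, was at 5.53, 6.13 and 5.21 FPKM in EPSCM and 21.4, 18.01 and 18.9 in ES, a log2 difference of -1.62 ± 0.09. Gja1, the gap junction protein connexin 43, was at 2.402, 3.65 and 2.71 FPKM in EPSCM, 25.8, 25.9 and 22.3 in ES and 3.12, 2.44 and 2.53 in 2iLIF, a log2 difference of -2.72 ± 0.13 between EPSCM and ES. Cdh3, P-cadherin, was at 2.24, 2.85 and 2.75 FPKM in EPSCM, 10.8, 9.29 and 9.33 in ES and 0.665, 0.392 and 0.546 in 2iLIF, a log2 difference of -1.58 ± 0.10 between EPSCM and ES. ES libraries were the high ones for the last 3 genes. Tetraspanins, which organise patches of membrane, had 6 higher and none lower of 21, with a median of 0.63, though 3 were lower after quantile normalization. Cd63, a tetraspanin of late endosomes, was at 308, 301 and 301 FPKM in EPSCM, 77.98, 76.8 and 77.9 in ES and 363, 363 and 361 in 2iLIF, a log2 difference of 1.95 ± 0.05 between EPSCM and ES, and Tspan9 differed by 1.84 ± 0.09. Clustered protocadherins, of which 9 of 56 were tested, had none higher and 2 lower, and their shared exons leave single values uncertain.

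The cytoskeleton differed by filament type. Intermediate filament genes had 2 higher and 9 lower of 26, with a median of -0.32. Krt17, a keratin of stressed epithelia, was at 1.72, 1.94 and 1.29 FPKM in EPSCM and 34.2, 28.8 and 29.1 in ES, a log2 difference of -3.58 ± 0.12. Lmna, which encodes lamins A and C of the nuclear envelope, was at 6.64, 7.79 and 6.69 FPKM in EPSCM and 57.9, 47.2 and 48.1 in ES, a log2 difference of -2.69 ± 0.10. Dsp, desmoplakin, which ties filaments to desmosomes, was the largest rise of the list, at 16.2, 17.6 and 16.3 FPKM in EPSCM and 2.27, 1.96 and 1.83 in ES, a log2 difference of 2.55 ± 0.08. Of 76 actin genes and regulators, 8 were higher and 11 lower. Capg, which caps actin filaments, was at 4.78, 5.54 and 4.58 FPKM in EPSCM and 41.4, 33.9 and 34.7 in ES, a log2 difference of -2.66 ± 0.10, and Tmsb4x, which holds actin monomers and lies on the X chromosome, at 156, 97.3 and 141 FPKM in EPSCM and 424, 528 and 538 in ES, a log2 difference of -1.93 ± 0.19. Without the libraries that stand apart Tmsb4x was at -1.84. Lima1, which bundles actin, was higher (2.00 ± 0.06). Tubulins and their partners were split 6 to 7 among 41, with Tubb3, the beta tubulin of neurons, at 15.3, 17.98 and 15.5 FPKM in EPSCM and 67.3, 59.7 and 61.8 in ES, a log2 difference of -1.89 ± 0.08.

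Trafficking genes were called higher about as often as all genes: Rab GTPases and regulators had 13 higher and 2 lower of 100, and SNAREs, sorting nexins and coat proteins 20 higher and 5 lower of 150, and 10 and 14 were higher after quantile normalization. Copz2, a subunit of the coat that returns vesicles to the endoplasmic reticulum, was at 41.3, 46.8 and 42.2 FPKM in EPSCM, 1.04, 0.911 and 0.978 in ES and 6.46, 5.57 and 6.198 in 2iLIF, a log2 difference of 4.49 ± 0.07 between EPSCM and ES. Rab3a, which guides secretory vesicles to the membrane, was at 26.6, 29.7 and 25.2 FPKM in EPSCM and 4.32, 3.69 and 3.61 in ES, a log2 difference of 2.53 ± 0.09, and its paralog Rab3b at 5.18, 7.64 and 6.03 FPKM in EPSCM and 1.16, 0.884 and 0.739 in ES, a log2 difference of 1.91 ± 0.14. The 3 EPSCM libraries stood apart from both other media for Copz2. Cltb, a clathrin light chain, was lower, at 14.1, 17.9 and 15.1 FPKM in EPSCM and 79.3, 65.4 and 64.9 in ES, a log2 difference of -2.08 ± 0.11. Enzymes that build the sugar chains of proteins had 16 higher and 3 lower of 94, with a median of 0.33. Man2a1 and Man2a2, the Golgi mannosidases that prepare chains for branching, differed by 2.07 ± 0.09 and 1.79 ± 0.07, and B3gnt7, which extends keratan-type chains and lies on chromosome 1, by -2.06 ± 0.09. Sialyltransferases, which cap the chains, had 5 higher and none lower of 12. Of these, 2 reached 1 FPKM in EPSCM only, and 4 of the other 10 were higher.

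**Figure D4:**
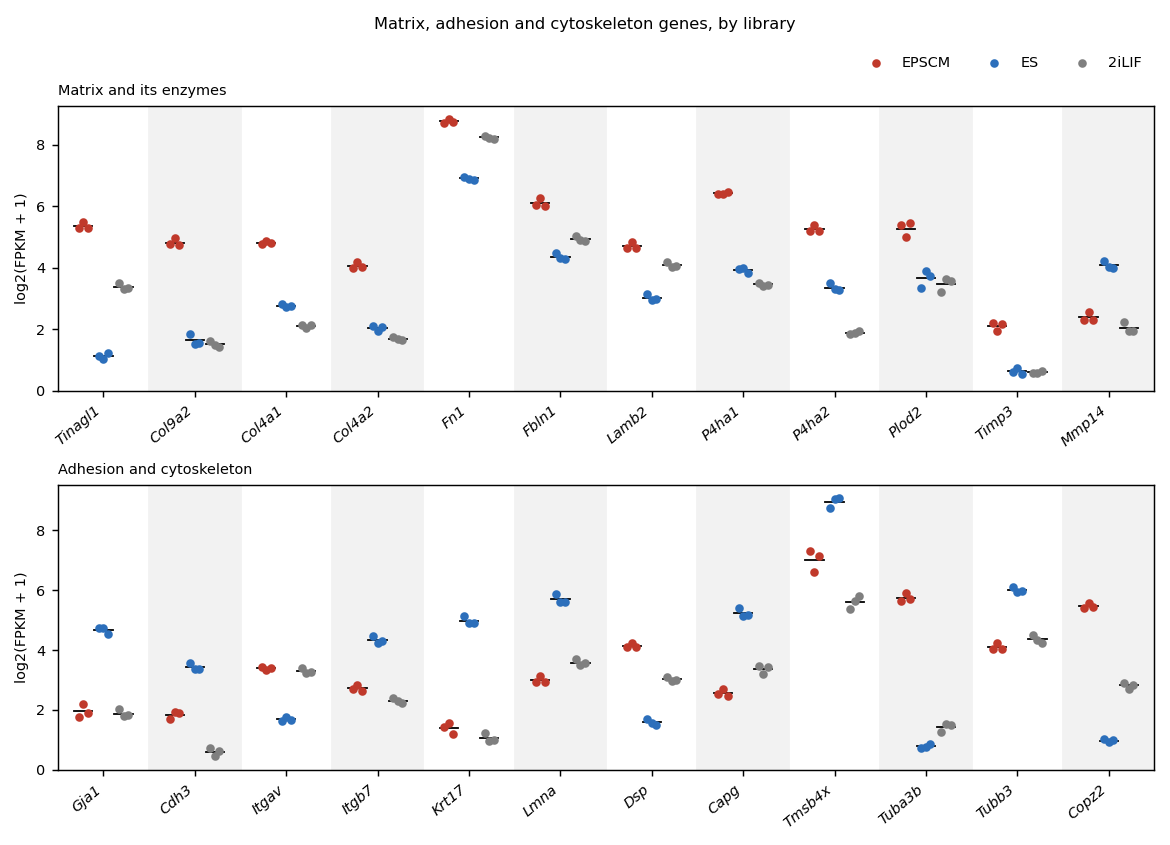
Level of 24 matrix, adhesion and cytoskeleton genes on the log2(FPKM + 1) scale in each library of EPSCM (red), ES (blue) and 2iLIF (grey), with the mean as a black line; genes were picked for display after their values were seen. P4ha1, P4ha2 and the collagen genes are highest in EPSCM, while Krt17, Lmna, Gja1 and Capg are highest in ES.

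Homeobox genes encode DNA-binding factors that pattern the embryo. Of 63 tested members outside the HOX and Rhox clusters, 21 were higher and 10 lower, but 22 of the 63 reached 1 FPKM in EPSCM only and so passed the filter through the medium where they are high. Of the 36 that reached 1 FPKM in both media, 7 were higher and 7 lower. Meis2, a partner of HOX proteins, was at 7.42, 6.57 and 7.04 FPKM in EPSCM, 0.172, 0.166 and 0.153 in ES and 10.9, 10.96 and 10.9 in 2iLIF, a log2 difference of 2.78 ± 0.07 between EPSCM and ES. Vax2, an eye patterning factor, was at 16.2, 18.6 and 17.2 FPKM in EPSCM, 2.24, 1.98 and 1.99 in ES and 18.8, 15.6 and 16.1 in 2iLIF, a log2 difference of 2.58 ± 0.08 between EPSCM and ES. The 2iLIF libraries were above EPSCM for Meis2 and overlapped with it for Vax2. Irx3 and Lmx1b, both limb and neural patterning factors, were also higher in EPSCM than in the other media. Irx3 was at 4.42, 5.18 and 4.69 FPKM in EPSCM, 0.311, 0.280 and 0.208 in ES and 0.122, 0.137 and 0.113 in 2iLIF, a log2 difference of 2.19 ± 0.07 between EPSCM and ES. Lmx1b was at 2.77, 3.56 and 2.88 FPKM in EPSCM, 0.0284, 0.0471 and 0.0887 in ES and 0.0265, 0.161 and 0.141 in 2iLIF, a log2 difference of 1.94 ± 0.09 between EPSCM and ES.

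Nkx6-3, a factor of stomach and brainstem, fell the most of the homeobox genes, at 0.662, 0.867 and 0.620 FPKM in EPSCM, 33.3, 26.2 and 25.4 in ES and 10.05, 8.56 and 8.09 in 2iLIF, a log2 difference of -4.09 ± 0.12 between EPSCM and ES. Its relative Nkx6-2, a factor of glia and neurons, was at 2.63, 2.36 and 2.21 FPKM in EPSCM, 20.9, 17.01 and 17.5 in ES and 12.1, 9.78 and 10.02 in 2iLIF, a log2 difference of -2.51 ± 0.10 between EPSCM and ES. Hopx, a homeodomain protein that does not bind DNA, was at 4.01, 4.26 and 5.81 FPKM in EPSCM and 21.2, 19.7 and 21.8 in ES, a log2 difference of -1.96 ± 0.12. ES was the highest of the 3 media for all 3 genes. Of 39 HOX genes in the table only 8 were tested, 6 of them higher, and 7 of the 8 reached 1 FPKM in EPSCM only; after quantile normalization 3 were higher. Hoxb13 was at 4.87, 6.58 and 5.11 FPKM in EPSCM, 0.286, 0.0639 and 0.349 in ES and 2.496, 1.88 and 1.88 in 2iLIF, a log2 difference of 2.40 ± 0.13 between EPSCM and ES, and Hoxc13 at 7.04, 6.25 and 7.15 FPKM in EPSCM, 0.748, 0.933 and 1.04 in ES and 9.08, 7.81 and 8.799 in 2iLIF, a log2 difference of 2.03 ± 0.09 between EPSCM and ES. Both belong to the most posterior group of HOX genes, and all of their levels were low.

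Zinc finger genes, the largest class of DNA-binding factors and in large part repressors of mobile elements, had 10 higher and 32 lower of 339, and their median of -0.03 was just under that of all genes. Zfp57, which keeps imprinted regions methylated, was at 70.1, 62.8 and 69.8 FPKM in EPSCM, 293, 299 and 295 in ES and 317, 322 and 321 in 2iLIF, a log2 difference of -2.11 ± 0.06 between EPSCM and ES. Zscan10, a factor of pluripotent cells, was at 18.6, 24.3 and 20.03 FPKM in EPSCM and 102, 90.8 and 85.4 in ES, a log2 difference of -2.09 ± 0.11. Zfp423, a factor of brain and fat development, was at 2.65, 3.54 and 3.08 FPKM in EPSCM, 20.8, 17.7 and 17.001 in ES and 0.199, 0.184 and 0.198 in 2iLIF, a log2 difference of -2.26 ± 0.11 between EPSCM and ES. The EPSCM libraries were the low ones for Zfp57, while 2iLIF was lowest for Zfp423. Other factor families were divided. SOX, forkhead, GATA, T-box and KLF factors had 7 higher and 8 lower of 57, with Foxd3, a forkhead factor of stem cells and neural crest, at 4.76, 4.802 and 4.57 FPKM in EPSCM and 37.6, 31.97 and 37.5 in ES, a log2 difference of -2.68 ± 0.08. Of 36 bHLH factors 8 were higher and 4 lower; Bhlhe40, a repressor that also acts in the clock, was at 115, 119 and 115 FPKM in EPSCM and 31.1, 31.9 and 30.8 in ES, a log2 difference of 1.86 ± 0.05, and Msc, musculin, on chromosome 1, at 1.21, 0.948 and 1.07 FPKM in EPSCM and 21.3, 17.4 and 17.8 in ES, a log2 difference of -3.25 ± 0.10. Nuclear receptors had 1 higher and 4 lower of 20, with Nr0b1, a corepressor on the X chromosome, at 17.6, 17.8 and 17.1 FPKM in EPSCM and 103, 91.6 and 93.6 in ES, a log2 difference of -2.39 ± 0.07, and Rarg, a retinoic acid receptor, at 23.2, 25.9 and 22.6 FPKM in EPSCM and 74.9, 64.6 and 66.5 in ES, a log2 difference of -1.48 ± 0.08. Histone modifying enzymes, with 4 higher and 6 lower of 99, and chromatin remodelling subunits, with 3 higher and 6 lower of 80, had few calls; after quantile normalization 8 remodelling subunits were lower.

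Several near-identical genes on the X chromosome were at or near 0 in ES and above 1 FPKM in EPSCM. The X chromosome as a whole had 85 higher and 32 lower of 426 tested genes, with a median of 0.21. The MAGE, XLR and testis multicopy list had 26 of 69 genes tested, 16 were higher and none lower; 14 of the 26 reached 1 FPKM in EPSCM only, and of the 12 that reached it in both media 2 were higher. Rhox genes, a homeobox cluster active in testis, ovary and placenta, had 9 tested of 30, with 6 higher and none lower, 5 of the 9 reaching 1 FPKM in EPSCM only and 1 of the 4 that reached it in both media being higher. Members that passed the filter through EPSCM alone had to differ, so these counts are descriptions. Reads from copies cannot always be assigned, so the single values below are uncertain, and sums over copies are given with them.

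The Rhox2 genes show how close the copies are before their start sites, which does not show whether RNA reads can be told apart. The copies were aligned on a run of bases that all 4 share at the end of the printed stretch, so they match there by choice. Their upstream stretches from RefSeq on GRCm38.p6, plus strand, are identical in 3 copies, and in the fourth printed copy 7 bases differ from Rhox2a, shown in capitals: Rhox2a at chrX:37244915-37244974, Rhox2b at chrX:37412006-37412065, Rhox2c at chrX:37453582-37453641 and Rhox2d at chrX:37493344-37493403.
Rhox2a: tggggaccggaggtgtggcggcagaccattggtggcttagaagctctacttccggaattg
Rhox2b: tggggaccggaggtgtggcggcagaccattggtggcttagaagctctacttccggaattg
Rhox2c: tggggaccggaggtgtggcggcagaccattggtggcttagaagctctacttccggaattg
Rhox2d: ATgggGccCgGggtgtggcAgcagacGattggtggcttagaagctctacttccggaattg
All 4 of these copies were tested and higher, and the 8 Rhox2 copies listed summed to 16.1 to 18.2 FPKM in EPSCM and 0 to 0.190 in ES. Rhox2a was at 7.72, 9.77 and 7.94 FPKM in EPSCM, was listed at 0 in every ES library, and was at 0.651, 0.490 and 0.278 in 2iLIF. Rhox2b, Rhox2c and Rhox2d were also listed at 0 in ES, and at 2.05, 3.24 and 2.49, 2.04, 2.19 and 2.19 and 1.99, 1.26 and 1.798 FPKM in EPSCM. Rhox1, at the edge of the cluster, was at 10.2, 11.9 and 9.92 FPKM in EPSCM, 0.862, 0.730 and 0.432 in ES and 2.21, 2.44 and 1.96 in 2iLIF, a log2 difference of 2.80 ± 0.12 between EPSCM and ES. Rhox13, which is read in germ cells, was at 20.5, 22.4 and 20.1 FPKM in EPSCM, 4.63, 4.74 and 4.35 in ES and 2.35, 2.69 and 2.15 in 2iLIF, a log2 difference of 1.98 ± 0.07 between EPSCM and ES.

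The 6 tested Xlr3 and Xlr5 genes, related to a synaptonemal complex protein, were all higher, 5 of them reaching 1 FPKM in EPSCM only, and they summed to 38.4 to 58.9 FPKM in EPSCM and 1.75 to 2.16 in ES. Xlr3a was at 25.4, 16.8 and 23.4 FPKM in EPSCM, 1.43, 1.64 and 1.34 in ES and 2.43, 2.99 and 3.06 in 2iLIF, a log2 difference of 3.19 ± 0.15 between EPSCM and ES. Xlr3b was at 12.9, 8.41 and 13.9 FPKM in EPSCM and 0.275, 0.340 and 0.430 in ES, a log2 difference of 3.21 ± 0.17, and Xlr3c at 10.7, 6.55 and 9.57 FPKM in EPSCM and 0.0418, 0.0987 and 0.348 in ES, a log2 difference of 3.08 ± 0.18. EPSCM replicate 2, which stands apart, was the lowest of its medium in these 3 genes; without it and ES replicate 1 their differences were 3.35, 3.38 and 3.19. The 3 tested Magea genes, of a family best known as tumour antigens, were all higher and reached 1 FPKM in EPSCM only: the 8 copies listed summed to 9.64 to 13.3 FPKM in EPSCM and 0.0798 to 0.0893 in ES. Nxf3, an RNA export factor of testis, was at 5.07, 1.78 and 5.19 FPKM in EPSCM and 0.0680, 0.357 and 0.191 in ES, a log2 difference of 1.97 ± 0.31, and differed by 2.27 without the libraries that stand apart. Esx1, a homeobox gene of placenta on the same chromosome, was at 9.09, 12.4 and 10.02 FPKM in EPSCM, 0.546, 0.940 and 0.311 in ES and 1.004, 0.848 and 0.890 in 2iLIF, a log2 difference of 2.86 ± 0.17 between EPSCM and ES.

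**Figure D5:**
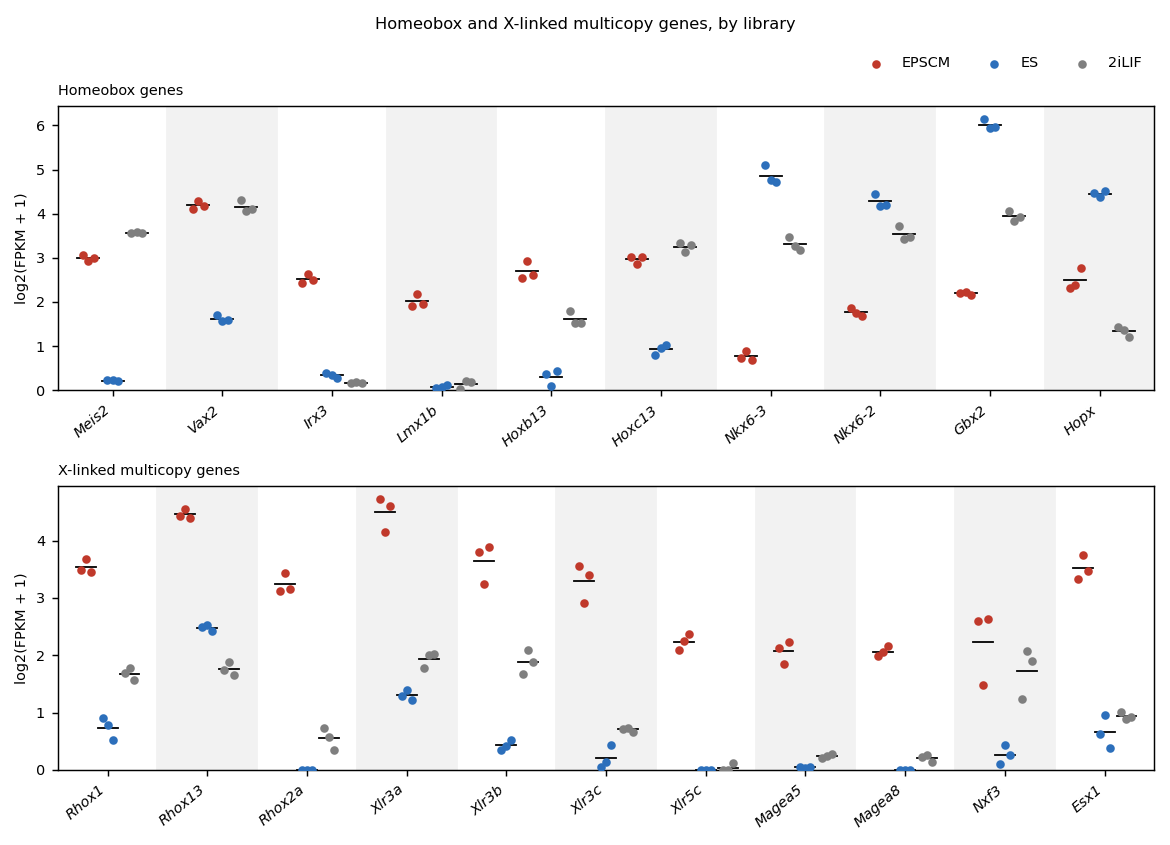
Level of 10 homeobox genes (top) and 11 genes of X-linked families (bottom) on the log2(FPKM + 1) scale in each library of EPSCM (red), ES (blue) and 2iLIF (grey), with the mean as a black line; genes were picked for display after their values were seen. EPSCM is above ES for all 11 X-linked genes, and 4 homeobox genes on the right side of the upper panel are highest in ES.

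Signalling enzymes outside the classic pathways had calls in both directions. Phosphodiesterases, adenylate cyclases and G proteins had 17 higher and 7 lower of 69, with a median of 0.38, and 10 higher after quantile normalization. Pde8a, which breaks down cyclic AMP, was at 23.002, 17.1 and 21.6 FPKM in EPSCM and 2.35, 3.09 and 3.098 in ES, a log2 difference of 2.48 ± 0.13. Gng12, a G protein gamma subunit, was at 12.7, 11.4 and 11.2 FPKM in EPSCM and 1.66, 1.58 and 1.52 in ES, a log2 difference of 2.30 ± 0.07. Camk2n1, which inhibits the calcium kinase CaMKII, was at 13.1, 13.1 and 13.2 FPKM in EPSCM and 1.73, 1.78 and 1.86 in ES, a log2 difference of 2.34 ± 0.06, and Ptprs, a receptor phosphatase that binds proteoglycans, at 73.6, 84.9 and 72.96 FPKM in EPSCM and 17.6, 15.4 and 15.8 in ES, a log2 difference of 2.18 ± 0.09. The EPSCM libraries were the high ones in all 4 genes. Of 64 G protein-coupled receptors 11 were higher and 5 lower, falling to 4 higher after quantile normalization; Adgrb1, an adhesion receptor of brain, was lower, at 0.744, 0.965 and 0.823 FPKM in EPSCM and 8.33, 7.55 and 7.67 in ES, a log2 difference of -2.26 ± 0.08. S100a1 and S100a6, calcium-binding proteins of the same family, differed in opposite directions: S100a1 was at 40.7, 44.2 and 36.02 FPKM in EPSCM, 0.969, 1.899 and 1.36 in ES and 84.1, 68.6 and 64.5 in 2iLIF, a log2 difference of 4.11 ± 0.15 between EPSCM and ES, and S100a6 at 9.61, 9.42 and 9.39 FPKM in EPSCM, 89.9, 76.3 and 79.3 in ES and 12.7, 11.6 and 12.04 in 2iLIF, a log2 difference of -2.98 ± 0.08 between EPSCM and ES. Anxa2, an annexin that ties membranes to actin, was at 125, 149 and 125 FPKM in EPSCM and 26.5, 22.3 and 22.8 in ES, a log2 difference of 2.43 ± 0.10.

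Among long noncoding RNAs the larger share of calls was lower. Of 37 named ones tested, 4 were higher and 11 lower, 10.8% and 29.7%, with a median of -0.25. Halr1, transcribed beside the Hoxa cluster, was at 3.405, 2.397 and 3.13 FPKM in EPSCM and 16.9, 17.3 and 16.04 in ES, a log2 difference of -2.16 ± 0.11. Mir17hg, the host of a microRNA cluster on chromosome 14, was at 4.09, 1.65 and 3.72 FPKM in EPSCM and 10.2, 14.8 and 14.8 in ES, a log2 difference of -1.82 ± 0.27, and differed by -1.69 without the libraries that stand apart. H19, an imprinted RNA, was at 5.68, 5.32 and 5.36 FPKM in EPSCM and 1.72, 1.73 and 1.601 in ES, a log2 difference of 1.27 ± 0.06, and Firre, an X-linked RNA of nuclear organisation, at 35.6, 39.3 and 37.9 FPKM in EPSCM and 14.9, 15.2 and 14.2 in ES, a log2 difference of 1.29 ± 0.07. ES libraries were the high ones for the first 2 and EPSCM libraries for the last 2. Terc, the telomerase RNA, was at 0.849, 0.806 and 0.519 FPKM in EPSCM and 3.48, 2.91 and 3.38 in ES, a log2 difference of -1.31 ± 0.10. Since poly(A) RNA was sequenced, these low values count only the Terc transcripts that the selection kept, and may not follow its full level. The same limit holds for any other noncoding RNA of this list without a poly(A) tail.

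Markers of other cell types were examined over whole lists. All 10 embryonic stem cell markers were tested and reached 1 FPKM in both media, none was higher and 4 were lower. Fgf4 stayed just short of the fold limit at 0.94 ± 0.06, and was called higher after quantile normalization (1.15). The lower ones were Utf1 (-4.19), Zfp42 (-1.70), Lin28a (-1.36) and Pou5f1 (-1.11). The 10 genes summed to 5258 to 5960 FPKM in EPSCM and 6413 to 7534 in ES. Dppa5a, which was not called, gave the largest part of these sums, with means of 3393 FPKM in EPSCM and 2985 in ES. Of 14 embryonic fibroblast markers 4 were tested, 2 higher and 1 lower, and 1 of the 2 higher ones reached 1 FPKM in EPSCM only. Col1a2, Col3a1, Dcn, Lum, Postn and Prrx1 stayed under 0.1 FPKM in all 6 libraries. The list summed to 138 to 161 FPKM in EPSCM and 155 to 178 in ES, most of it from vimentin. Primitive endoderm markers had 9 of 14 tested, 3 higher and 1 lower, and summed to 159 to 165 against 120.8 to 123.1, with Afp under 0.1. Col4a1 is one of the 3 higher members, so this list and the collagen result share that gene. The list did not move as 1: 6 of its 9 tested differences were above 0 and 3 below. The other higher members were Gata6 (1.32 ± 0.07) and Gata4 (1.21 ± 0.11, and 0.95 after quantile normalization). Both reached 1 FPKM in EPSCM only and so passed the filter through that medium. Those below 0 were Sox7 (-1.88, called lower), which reached 1 FPKM in ES only, Lama1 (-0.33) and Hnf4a (-0.11). Gata4 and Sox7 lie on chromosome 14. Without the genes of chromosomes 1, 14 and Y, 2 members of the list were higher and none lower. The part of this list in the collagen values was not tested. Trophoblast markers summed to 67.2 to 81.5 FPKM against 33.4 to 38.8, 2 higher of 6 tested and none lower, with Elf5, Plac1, Prl3d1 and Tpbpa under 0.1 in all 6. Esx1 is one of its 2 called members, with Eomes, and reached 1 FPKM in EPSCM only. Tfap2c, which gives the most FPKM of the list, was not called (0.99 ± 0.09). In some other settings Tfap2c was just past the fold limit and called higher, such as 1.03 with the same FPKM sum in each library. The part of this list in the X-linked values was not tested. Neural markers had 1 higher and 1 lower of 5 tested, summing to 30.5 to 33.9 against 69.7 to 77.6. Tubb3, the lower one, gave most of the sum in ES, with a mean of 62.9 FPKM there and 16.2 in EPSCM, while Nes was higher. Mesoderm and endoderm markers had 2 higher of 2 tested, Eomes and Gsc, with sums of 11.3 to 12.3 against 3.59 to 4.39. Gsc reached 1 FPKM in EPSCM only and so passed the filter through that medium. Of the 12 genes of this list, 9 stayed under 1 FPKM in all 6 libraries. Blood and endothelial markers had 1 higher and 1 lower of 5 tested and summed to 87.3 to 95.0 against 49.8 to 54.0, with Hba-a1, Hbb-b1, Lyz2 and Ptprc under 0.1 FPKM. Pecam1, the higher one, gave most of the sum in EPSCM, with a mean of 62.7 FPKM there and a log2 difference of 1.67 ± 0.06. The other 4 tested differences were below 0, so the larger sum in EPSCM came from Pecam1 and not from the list as a whole. The 2-cell-like markers had 2 of 12 tested, none higher and 1 lower, and summed to 1.78 to 2.89 FPKM against 4.86 to 8.81. Both tested genes of this last list reached 1 FPKM in ES only and so passed the filter through that medium.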

How the data were processed

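FPKM values for each gene in each library form the 1 table the authors deposited. The submitters' processing notes name STAR, Cuffnorm and the build mm9; for tool versions, annotation, library scaling and strand use, the record is silent (not given in the sources used here). Since FPKM is relative to library total, a change in abundant transcripts alters the rest, and overlapping or near-identical genes may share fragments. Counts are not analysed here. At the best depth found, low values of genes with a single annotated transcript lay within 0.15 of a whole fragment number in at most 44.8% of cases, against 30% for evenly spread values, so no depth is given.

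Values were taken as log2(FPKM + 1) and fitted with limma 3.58.1 (R 4.3.3; empirical Bayes with a trend) over the 6 EPSCM and ES libraries. The members and gene lists were chosen with earlier results of these data known; subgroups were formed after values were seen. The rule for named genes took up to 4 called genes per list and direction whose higher group averaged 1 FPKM or more, the 15 largest rises and falls overall with that average at 5 FPKM or more, and all marker genes, 486 in all; a further 40 were added after their values were seen, and not all are printed. Symbols were matched to RefSeq tables of GRCm38 (24269 by symbol, 465 by a unique synonym, 85 not matched) for chromosomes, names and promoters, and transcript lengths came from GENCODE on the same build; no mm9 coordinates are printed. The model was tested on simulated data. Alternatives were other pseudocounts, filters, scalings and variance priors, covariates and leaving out libraries.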

Additional observations from a re-analysis of the deposited data

How the results depend on the processing

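Counts were recomputed under 20 other settings. Between 1429 and 1495 genes were higher and 956 to 995 lower when 1 library was left out. With the test restricted to the 8474 genes averaging 5 FPKM or more, fewer by construction, 856 were higher and 720 lower. A pseudocount of 0.1 FPKM gave 2050 higher and 1263 lower, and the same FPKM sum in each library 1520 and 909. Without the 2 libraries that stand apart 1450 were higher and 966 lower, and with them as a covariate, chosen after seeing the data, 1441 and 985. Without the genes of chromosomes 1, 14 and Y there were 1351 and 798. Of 10280 recomputed differences of named genes 10152 kept direction and side of the threshold, and of 3160 list counts 2913 stayed within 1.5 times. A few differences near 0, none of them called, changed sign. After quantile normalization Nanog was at 0.064 (from -0.14), Sox1 at -0.19 (from 0.04), Tdgf1 at 0.094 (from -0.07) and Vim at 0.044 (from -0.16). Sox1 was at -0.039 with the same median ratio, and Tdgf1 at 0.029 without EPSCM replicate 2. The cause was not tested. No paired analysis was possible because the groups share no library numbers in the labels. Low FPKM values are the least precise, and no depth is known for them.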
